A study of Mus musculus with 10 samples.

Results

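The genes described here are 32 genes of the retinal vasculature, taken by symbol from a deposited table of 36115 genes: 25 that mark endothelial cells or build and regulate the blood-retina barrier, and 7 of pericytes. All 32 symbols were found, each in a single row, and all 32 passed the filter on low counts that left 18965 genes to test. The measurements are RNA sequencing reads per gene from whole retinas of untreated C57BL/6 mice aged 3 months. There were 5 libraries from wild-type mice, called W1 to W5, and 5 from mice with the genotype label B6.129S2-Il6tm1Kopf/J, a line in which the cytokine gene Il6 is disrupted in all cells, called K1 to K5. Neither group received a treatment, the background label is the same in both, and the numbers are names only and pair no libraries. Whether each library is a separate animal is not stated, so the p-values measure the spread between these libraries, which may be technical. No litter, sex or preparation batch is given here, so these and the genotype cannot be told apart.

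Vessels of the inner retina are lined by endothelial cells whose tight junctions, efflux pumps and low rate of transcytosis keep blood solutes out of the neural tissue, and norrin-Wnt signalling through the receptor Fzd4 maintains that state. Pericytes wrap these capillaries, depend on PDGF signals from the endothelium, and set capillary tone partly through ATP-sensitive potassium channels. IL-6 is a cytokine that can act on endothelial cells, and it is known to loosen endothelial junctions in inflamed tissue. The comparison asks how the vascular genes of the uninjured retina stand when Il6 is disrupted.

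Library totals ran from 30433373 to 38857374 counts. The reads on Il6 itself were 0, 0, 1, 1 and 1 over the wild-type libraries and 3, 3, 5, 7 and 4 over K1 through K5, 22 against 3, which goes against the genotype labels. Gene-level counts do not separate the disrupted part of the gene, so they check nothing, and directions below are those of the libraries as labelled. Markers of the labelled tissue were abundant, with 7 rod and cone genes summing to 43914 to 62909 CPM (a gene's reads scaled to the size of the library). Whole retina was sequenced, so fewer vascular cells and less RNA per vascular cell cannot be told apart.

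Among the 32 genes, 1 passed the test and rose in the libraries labelled knockout, and none fell. It was Robo4, an endothelial roundabout receptor that stabilises vessels, at 1.52 times its wild-type level. The threshold was an adjusted p under 0.05 from edgeR's test for counts. The share called, 3.13%, stands beside 2.03% of all tested genes (0.859% called higher, 1.17% lower), so the count of calls is near that of the transcriptome. Most of the other genes leaned upwards without passing: 27 of 32 had a positive log2 fold change (log2FC, labelled knockout over wild type), against 50.4% of all tested genes, and the median log2FC was 0.16 against 0.0018. The 32 genes are read in the same 10 libraries, so these 27 are not independent observations. Some other vascular lists leaned the same way, with 21 of 30 other endothelial genes (median 0.15) and 12 of 16 other pericyte genes (median 0.21) positive. The norrin-Wnt and barrier list had 17 of 30 positive (median 0.03). The angiopoietin, Notch, PDGF and BMP list had 16 of 33 positive (median -0.01) and did not lean upwards. Over these 4 lists together, 60.6% were positive.

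**Figure D1:**
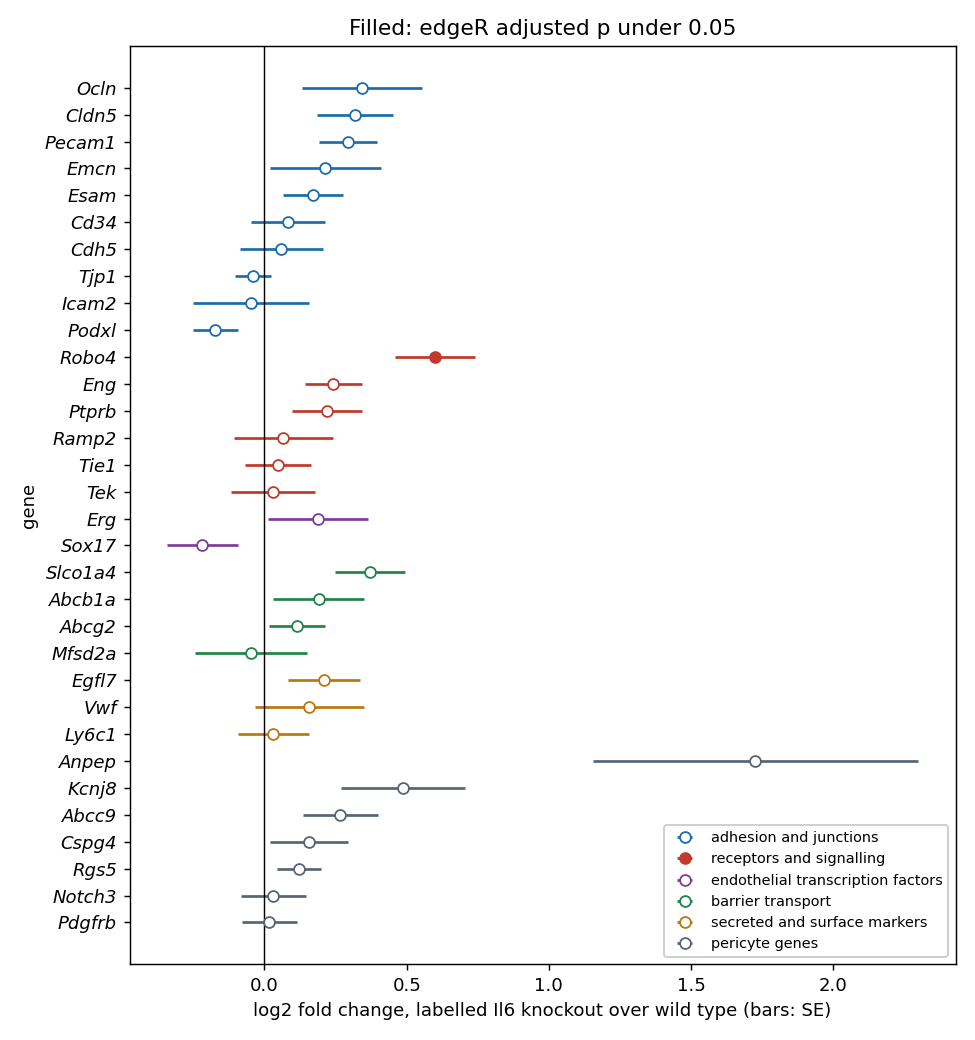
Each point is the edgeR log2FC of a gene, labelled knockout over wild type, with its SE as the bar (5 libraries a group), coloured by role. Robo4, the filled point at 0.60, is the 1 gene with an adjusted p under 0.05, and 27 of the 32 points lie right of 0.

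The sequence upstream of the start is shown for Robo4, Slco1a4 and Kcnj8. They are the 3 genes of the set that were called when library W2 was left out, a choice made from these same values. The stretches are those of RefSeq on GRCm38.p6, 5′ to 3′ on the gene's strand, cut where the deposited gene model begins. Capitals mark GGAA or TTCC, the core bound by ETS factors such as ERG on either strand, and AACAAT or ATTGTT, a SOX-type site.
Robo4 (chr9:37401722-37401896, plus strand): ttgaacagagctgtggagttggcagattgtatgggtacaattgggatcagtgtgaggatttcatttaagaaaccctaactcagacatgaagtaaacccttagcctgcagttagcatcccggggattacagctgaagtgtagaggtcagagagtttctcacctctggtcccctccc
Slco1a4 (chr6:141856221-141856470, minus strand): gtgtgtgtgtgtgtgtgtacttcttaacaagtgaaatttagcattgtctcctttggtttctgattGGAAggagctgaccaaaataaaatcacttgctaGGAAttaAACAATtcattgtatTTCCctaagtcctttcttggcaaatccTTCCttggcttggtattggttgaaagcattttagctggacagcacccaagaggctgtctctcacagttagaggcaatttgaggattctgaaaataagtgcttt
Kcnj8 (chr6:142571615-142571864, minus strand): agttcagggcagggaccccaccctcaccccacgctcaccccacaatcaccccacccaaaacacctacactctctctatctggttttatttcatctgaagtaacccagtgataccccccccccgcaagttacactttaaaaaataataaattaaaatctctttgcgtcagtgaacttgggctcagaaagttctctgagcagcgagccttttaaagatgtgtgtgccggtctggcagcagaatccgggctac

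The Slco1a4 stretch of 250 bases held 4 ETS cores and 1 SOX-type site, and the Kcnj8 stretch of 250 bases held neither. None was in the 175 bases printed for Robo4, and 3 ETS cores were in the 75 bases that follow them up to the RefSeq start, which the deposited gene model counts as part of the gene. RefSeq promoters were matched for 22 of the 32 genes, with 30 starts. Of these, 86.7% held GGAA or its complement in the 250 bases upstream, against 93.4% of 32851 starts of all genes, 3.33% against 12% held the longer site CCGGAA or its complement, which contains GGAA, and 13.3% against 9.42% held AACAAT or its complement. These are letter matches, given as a description.

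Levels between genes were compared per kb of exon. Podxl, a sialomucin that neurons also carry, stood highest in wild type at 43.6 ± 4.59 CPM per kb (SD, n = 5), and Rgs5, a regulator of G-protein signalling that marks pericytes, came second at 23.5 ± 2.09. The tight junction scaffold Tjp1, which most epithelia and the junctions around photoreceptors also use, stood at 17.98 ± 0.824, and the endothelial claudin Cldn5 at 14.2 ± 3.13. Tjp1 and Cldn5 overlapped over the wild-type libraries, while Podxl and Rgs5 each lay above the next gene in every one of them. At the other end were Emcn at 0.406 ± 0.0457, Cspg4 at 0.342 ± 0.0388 and Anpep at 0.151 ± 0.0643 CPM per kb. Counts per library ran from 11 for Anpep to 9496 for Podxl, so counting error weighs most on Anpep, Icam2 (34 to 63 counts) and Erg (52 to 92).

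**Figure D2:**
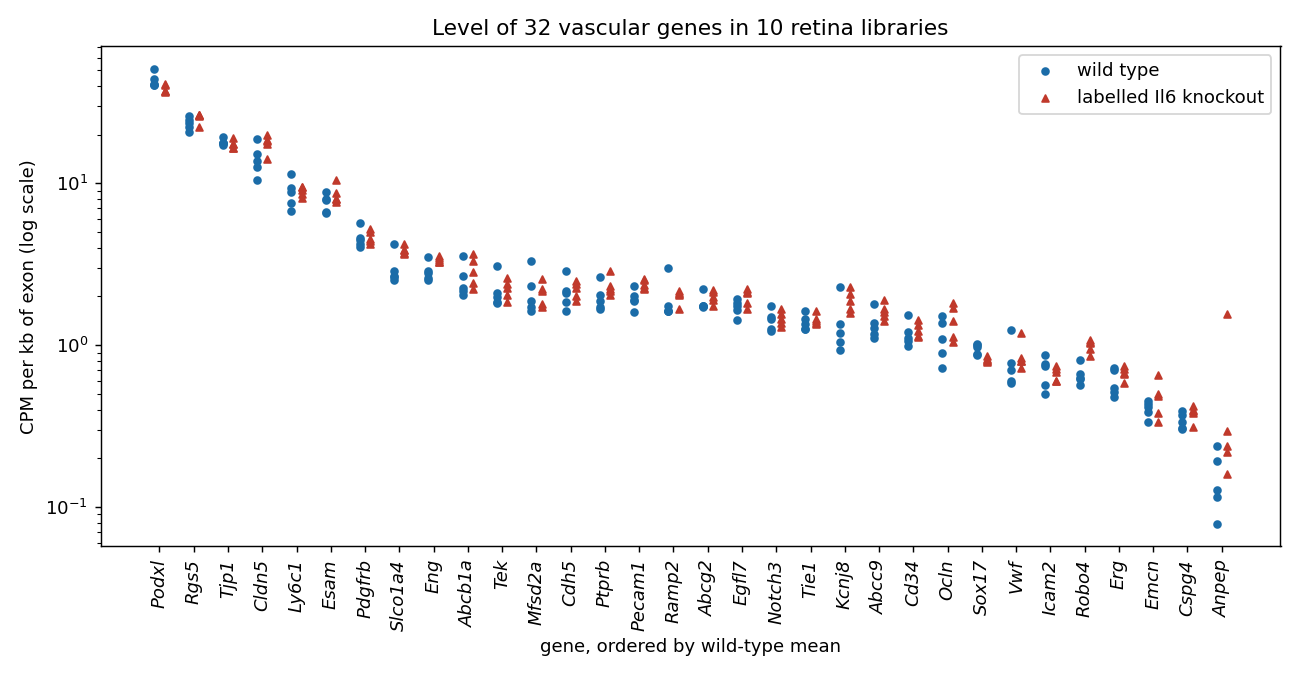
Level of each gene in CPM per kb of exon on a log axis, with 5 wild-type libraries (circles) and 5 labelled knockout (triangles), ordered by the wild-type mean. Podxl and Rgs5 stand highest, and the groups overlap for all but Robo4 and Sox17.

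Receptors and signalling proteins of the endothelium held the 1 call. Robo4 (ENSMUSG00000032125.20, chr9:37401897-37415115, GRCm38) stood at 3.31, 4.27, 3.28, 3.00 and 3.52 CPM from W1 through W5, then 4.52, 5.73, 5.04, 5.49 and 5.55 CPM from K1 through K5. Every library labelled knockout lay above every wild-type library, the highest of which was W2. The means went from 3.47 ± 0.480 to 5.26 ± 0.488 CPM (SD, n = 5), a log2FC of 0.60 ± 0.14 (SE) with an edgeR adjusted p of 0.0382. In the authors' deposited table the adjusted p of Robo4 was 0.00139, where 3.37% of genes with a value were called. Run here, DESeq2 gave 0.00151 and limma-voom 0.0321, with 3.07% and 1.8% of all genes called. The call was lost without W1, W3, W4, W5, K2, K3, K4 or K5 (adjusted p 0.0649 to 0.103, log2FC 0.55 to 0.62) and kept without W2 or K1.

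Eng, a co-receptor for TGF-beta and BMP ligands and the most abundant gene of this role per kb, stood at 11.3, 14.3, 11.6, 10.2 and 10.5 CPM from W1 through W5, then 13.3, 14.3, 13.5, 14.1 and 13.3 CPM from K1 through K5. Only W2 among the wild-type libraries reached the range of those labelled knockout, and the log2FC was 0.24 ± 0.10 (SE, n = 5; edgeR adjusted p = 0.297). Ptprb, a phosphatase that restrains the angiopoietin receptor, had a log2FC of 0.22 ± 0.12 and did not pass (adjusted p = 0.471). The angiopoietin receptor Tek, its partner Tie1 and the adrenomedullin co-receptor subunit Ramp2 had log2FC of 0.03, 0.05 and 0.07, each smaller than its SE of 0.15, 0.12 and 0.17. Of the exon bases of Ramp2, 33.4% are shared in the annotation with Vps25, so its counts are uncertain.

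Adhesion and junction genes did not pass, and 7 of the 10 had a positive log2FC (median 0.13). Pecam1, an adhesion molecule at endothelial contacts (ENSMUSG00000020717.19, chr11:106654217-106750628), stood at 12.5, 14.5, 10.02, 11.7 and 11.9 CPM from W1 through W5, then 14.6, 13.9, 15.8, 15.99 and 14 CPM from K1 through K5. The groups overlapped through W2, and the log2FC was 0.29 ± 0.10 (SE, n = 5; edgeR adjusted p = 0.188). Cldn5, the main claudin of the barrier (ENSMUSG00000041378.1, chr16:18776847-18778260), stood at 14.9, 26.7, 21.6, 19.4 and 17.9 CPM from W1 through W5, then 26.3, 28.3, 20.04, 25.9 and 24.8 CPM from K1 through K5. W2 and W3 lay within the labelled knockout range and every library labelled knockout but K2 within the wild-type range, and the log2FC was 0.32 ± 0.13 (adjusted p = 0.3). Podxl ran the other way, at 222, 222, 244, 226 and 281 CPM from W1 through W5, then 226, 205, 204, 224 and 202 CPM from K1 through K5. There, W5 stood highest and all 5 libraries labelled knockout lay below the wild-type median, with a log2FC of -0.17 ± 0.08 (adjusted p = 0.338).

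The other 7 genes of this role had log2FC from -0.05 to 0.34. Ocln, a tight junction membrane protein, had the largest at 0.34 ± 0.21, but its wild-type libraries alone ran from 3.05 to 6.37 CPM, and its edgeR adjusted p was 0.514. Esam, an adhesion molecule of tight junctions, stood at 0.17 and the sialomucins Emcn and Cd34 at 0.21 and 0.08. Cdh5, the cadherin of endothelial adherens junctions, Tjp1 and the leukocyte-binding Icam2 had log2FC of 0.06 ± 0.15, -0.04 ± 0.06 and -0.05 ± 0.20 (SE). Each of these log2FC is smaller than its SE, which leaves room for changes of either sign, and the SE is smallest for Tjp1.

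**Figure D3:**
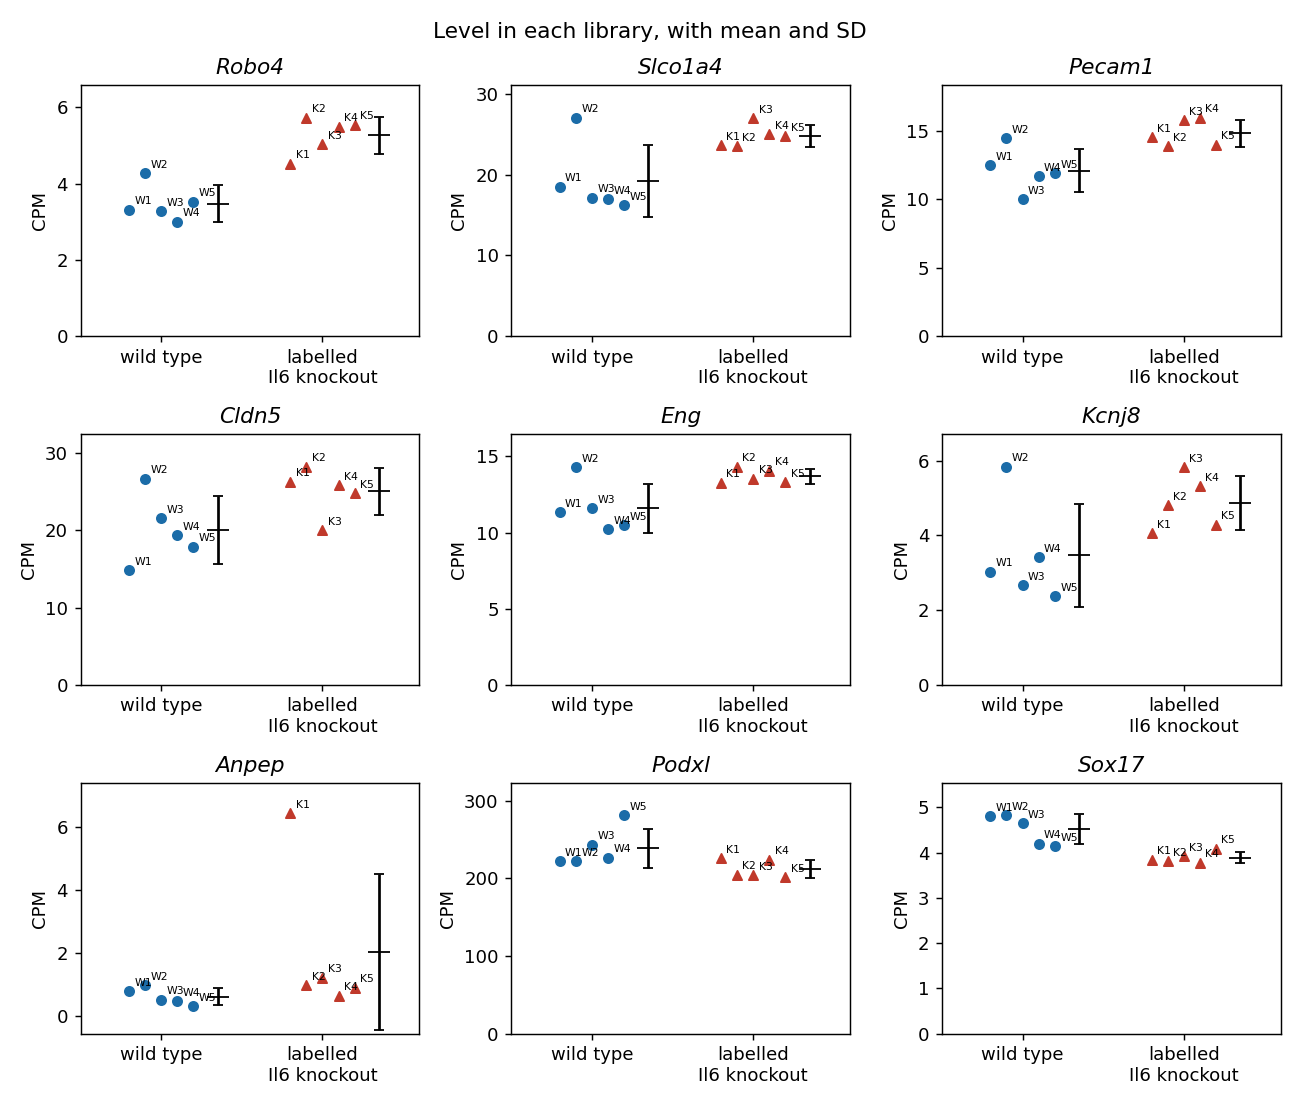
CPM of 9 genes in each library, named beside its point, with the mean and SD of 5 libraries as the black bar. The groups do not overlap in Robo4 and Sox17, W2 lies at the level of the labelled knockout libraries in Slco1a4, Pecam1, Cldn5, Eng and Kcnj8, and K1 alone lies high in Anpep.

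Both transcription factors of the set missed the threshold and had opposite signs. Sox17, a SOX factor of arterial endothelium (ENSMUSG00000025902.13, chr1:4490931-4497354), stood at 4.81, 4.82, 4.65, 4.20 and 4.14 CPM from W1 through W5, then 3.84, 3.81, 3.92, 3.78 and 4.08 CPM from K1 through K5. Every library labelled knockout lay below every wild-type library, yet the gap was small, with a log2FC of -0.22 ± 0.12 (SE, n = 5) and an edgeR adjusted p of 0.473. Of the exon bases of Sox17, 16.8% are shared with the predicted gene Gm37587. Erg, an ETS factor that maintains endothelial identity, had a log2FC of 0.19 ± 0.18 (adjusted p = 0.698). Robo4 and Sox17 are the 2 of 32 genes (6.25%) whose groups did not overlap, against 3.48% of all tested genes (1.76% higher, 1.72% lower).

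Of the 4 transporters none passed, and the largest log2FC was that of Slco1a4. This organic anion transporter of barrier endothelium (ENSMUSG00000030237.14, chr6:141805440-141856199) stood at 18.5, 27.04, 17.1, 16.96 and 16.2 CPM from W1 through W5, then 23.7, 23.5, 26.97, 25.02 and 24.8 CPM from K1 through K5. In 4 wild-type libraries it lay between 16.2 and 18.5 CPM, below all 5 labelled knockout, and only W2, at 27.0 CPM, lay above them. The log2FC was 0.37 ± 0.12 (SE, n = 5, edgeR adjusted p = 0.161). Leaving out W2, the highest wild-type library, must raise the difference, and it gave 0.53 with an edgeR adjusted p of 0.00133. The efflux pumps Abcb1a and Abcg2 had log2FC of 0.19 ± 0.16 and 0.11 ± 0.10. Abcb1a has a close copy, Abcb1b, and lies 21.3 Mb from Il6 on chromosome 5. Mfsd2a, a lysolipid transporter that also holds down transcytosis, had a log2FC of -0.05 ± 0.20, and its sign turned with limma-voom (0.0082) and without W2 (0.15), K4 (0.0155) or K5 (0.0025).

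Of the secreted and surface markers, none passed the test. Egfl7, a secreted endothelial protein whose gene hosts a microRNA, stood at 5.16, 6.95, 6.26, 6.49 and 5.92 CPM from W1 through W5, then 7.95, 7.62, 6.57, 5.97 and 7.48 CPM from K1 through K5. Those ranges overlapped, and the log2FC was 0.21 ± 0.13 (SE, n = 5; edgeR adjusted p = 0.505). Ly6c1, a surface protein of capillary endothelium, stood at 15.6, 19.3, 14.8, 11.3 and 12.7 CPM from W1 through W5, then 13.7, 15.98, 15.9, 14.5 and 15.3 CPM from K1 through K5, with a log2FC of 0.03 ± 0.12. Its family has close copies, so its reads are uncertain. Vwf, the clotting factor stored in endothelial granules, had a log2FC of 0.16 ± 0.19 (adjusted p = 0.784) and stood highest in W2 and K3.

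Pericyte genes all had a positive log2FC, 7 of 7 with a median of 0.16, and none passed. The signs of Notch3 and Pdgfrb turned when single libraries were left out. Kcnj8, the pore subunit of the vascular ATP-sensitive potassium channel (ENSMUSG00000030247.9, chr6:142564837-142571614), stood at 3.02, 5.84, 2.67, 3.42 and 2.37 CPM from W1 through W5, then 4.06, 4.80, 5.82, 5.31 and 4.29 CPM from K1 through K5. W2 reached the top of the labelled knockout range and the other 4 wild-type libraries lay below it, with a log2FC of 0.49 ± 0.22 (SE, n = 5; edgeR adjusted p = 0.333). Leaving out W2, the highest wild-type library, must raise the difference, and the log2FC of Kcnj8 was then 0.76 with an edgeR adjusted p of 0.0227. Abcc9, the regulatory subunit of the same channel, lies 16.2 kb away and had a log2FC of 0.27 ± 0.13 (adjusted p = 0.385).

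Rgs5, the pericyte gene highest per kb, stood at 108, 112, 118, 93.9 and 101 CPM from W1 through W5, then 120.5, 120.0, 119, 120.2 and 101 CPM from K1 through K5. Its groups overlapped through K5, and the log2FC was 0.12 ± 0.08 (SE, n = 5; edgeR adjusted p = 0.524). Pdgfrb, the PDGF receptor that recruits pericytes, the mural Notch receptor Notch3 and the proteoglycan Cspg4 had log2FC of 0.02 ± 0.10, 0.03 ± 0.11 and 0.16 ± 0.14. Anpep, an aminopeptidase of pericytes and also of fibroblasts, epithelia and myeloid cells, had the largest log2FC of the set, 1.73 ± 0.57 (adjusted p = 0.166), and it rested on K1. Per library it stood at 0.796, 0.989, 0.529, 0.474 and 0.326 CPM from W1 through W5, then 6.43, 0.988, 1.22, 0.660 and 0.910 CPM from K1 through K5. Without K1 the log2FC was 0.61 with an adjusted p of 0.385. The 7 fibroblast and meningeal markers summed to 20.3 CPM in K1 against 18.7 to 40.5 CPM in K2 to K5, and 9 microglia and macrophage markers to 42.6 against 34.5 to 49.6 CPM. Their part in the Anpep value was not tested.

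A single wild-type library stood out across the set. W2 had the highest wild-type level in 26 of the 32 genes (81.3%), against 27.2% of all tested genes. It was the highest of all 10 libraries in 14 (43.8%), against 15.3% of all tested genes. It was the lowest of the 10 in 0 of the 32, against 17.1% of all tested genes. Both shares over all tested genes were the largest of any library. Taking each gene as a log2 CPM difference from its wild-type mean, the median over the 32 genes was 0.31 in W2 and -0.18 to -0.04 in the other 4 wild-type libraries. It was 0.14, 0.15, 0.25, 0.17 and 0.02 in K1 to K5. W2 thus lay above all 5 libraries labelled knockout, while the other 4 wild-type libraries lay below them. Over all tested genes the same medians ran from 0.0014 to 0.012 in all 10 libraries.

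**Figure D4:**
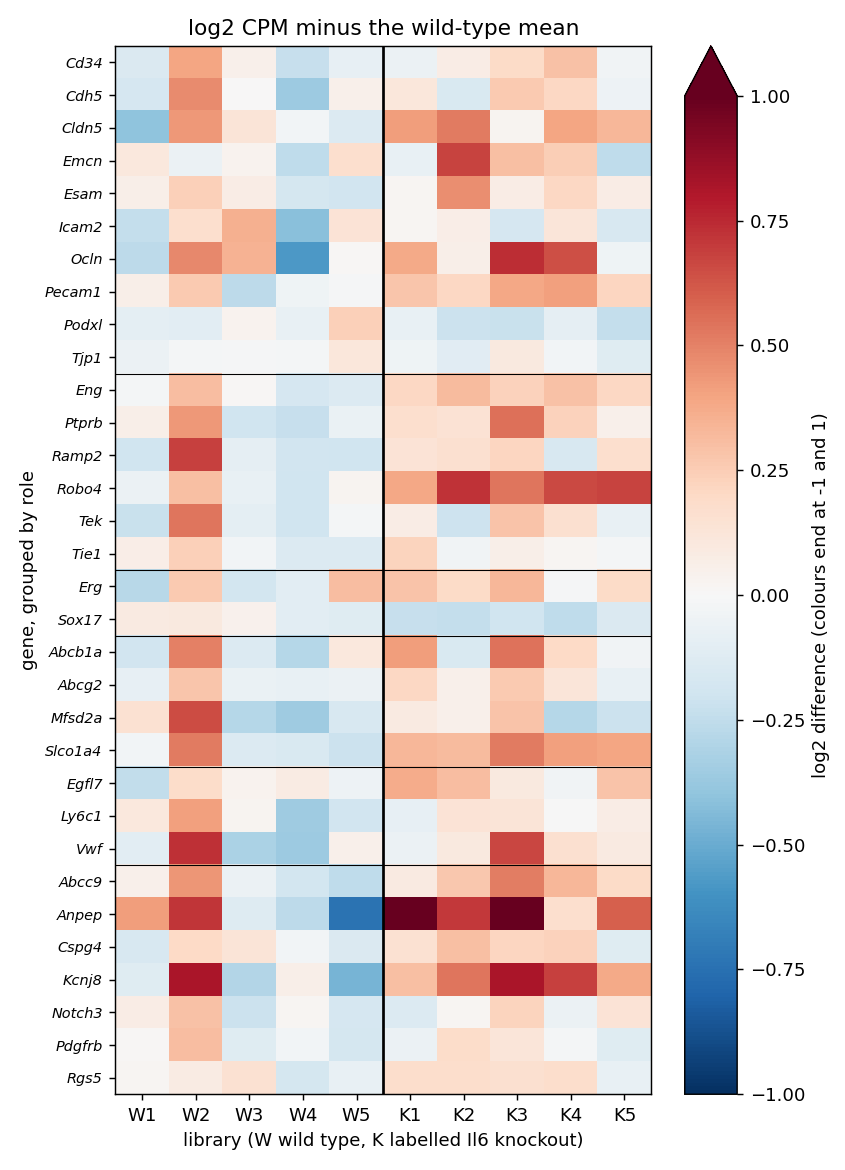
Colour gives log2 CPM minus the wild-type mean for each of 32 genes (rows, grouped by role) in each of 10 libraries (columns), with colours ending at -1 and 1. The W2 column is warm in most rows, with a median of 0.31, and the other wild-type columns are cooler.

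W2 also held the highest wild-type sums of 6 lists of other cell types and the lowest of smooth muscle markers (188 CPM, with 196 to 259 CPM in the other wild-type libraries). Its 8 pigment epithelium and choroid markers summed to 424 CPM against 41.2 to 288 CPM in the other wild-type libraries and 183 to 309 CPM in those labelled knockout. Astrocyte and Muller glia markers (7 genes) summed to 6344 CPM in W2 against 4623 to 5301 CPM in the rest of the wild type and 4782 to 5732 CPM in K1 to K5. The 5 erythroid markers stood at 59.99 CPM in W2 and from 16.0 to 55.1 CPM elsewhere, and the 7 fibroblast and meningeal markers at 31.4 CPM in W2 with 19.1 to 20.6 CPM in the other wild-type libraries and 18.7 to 40.5 CPM in K1 to K5. Microglia and macrophage markers summed to 51.7 CPM in W2 and 34.5 to 49.6 CPM elsewhere. No marker was at 0 in all libraries. The part of these cells in the vascular levels of W2 was not tested.

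Without W2, 3 of the 32 genes were called, all higher: Robo4, Slco1a4 and Kcnj8. That is 9.38% beside 2.81% of all genes tested in that fit (1.31% called higher). W2 held the highest wild-type level of each of them, so the fit without it is not separate support. The median log2FC of the 32 genes was then 0.22, with 28 positive. Leaving out any other library gave 0 or 1 call, 24 to 28 positive genes and medians from 0.10 to 0.19, with 1.1 to 2.29% of all genes called. Without a low-count filter, Anpep and Robo4 were called, beside 1.95% of all genes (0.825% higher). At an unadjusted p under 0.05, 7 genes were higher and 1 lower with all libraries, 25.0% of the set against 13.8% of all tested genes (6.78% higher, 7.03% lower). They were Robo4, Slco1a4, Anpep, Pecam1, Eng, Cldn5, Kcnj8 and, lower, Podxl. Without W2 the counts were 15 higher and 1 lower, beside 8.22% of all genes higher.

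**Figure D5:**
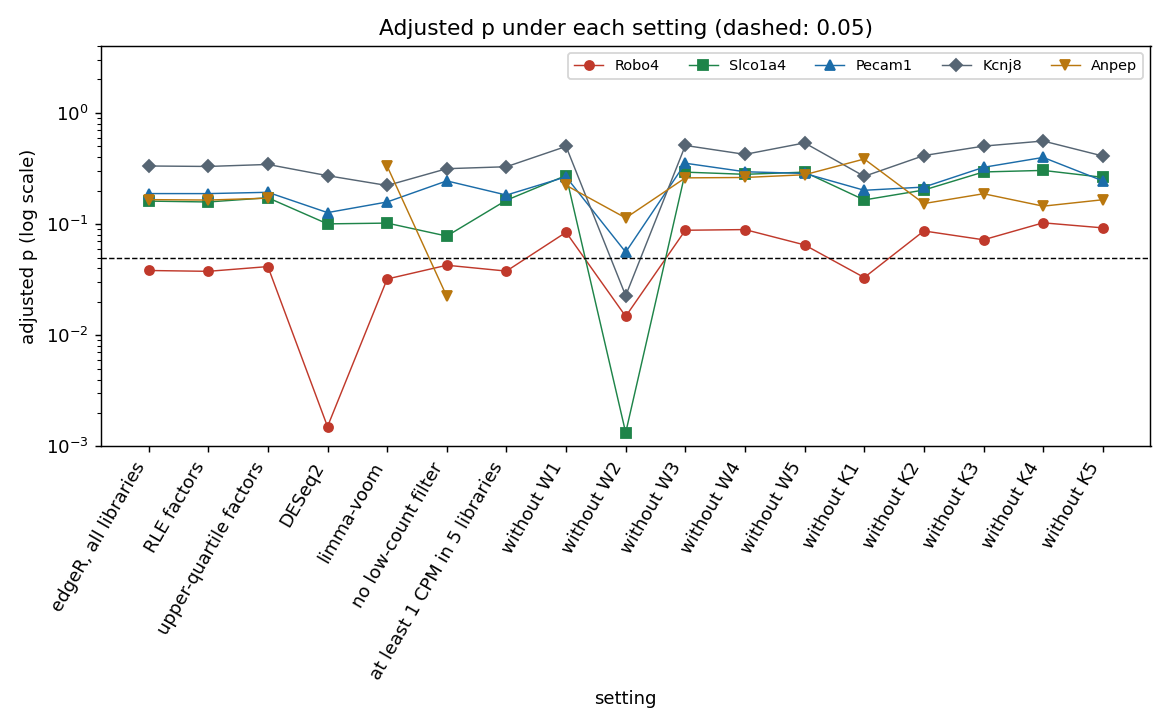
Adjusted p on a log axis for 5 genes under edgeR with all libraries and 16 alternatives, the dashed line marking 0.05. Robo4 runs from 0.00151 with DESeq2 to 0.103 without K4 and lies above the line in 8 of the 16 alternatives, and Slco1a4 and Kcnj8 fall under it only without W2.

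Other genes of the same pathways, from lists that overlap none of the 32, gave 1 call in 109 tested (0.917%, against 2.03% of all genes). It was Dll1, a Notch ligand, which rose from 11.4 ± 0.604 to 14.8 ± 0.904 CPM with a log2FC of 0.38 ± 0.09 (SE, n = 5) and an edgeR adjusted p of 0.0336, and no overlap between groups. Its adjusted p ran from 0.00217 to 0.089 over the alternatives, and the call was lost without W1, W3, W4, W5, K1, K2, K4 or K5 and with no low-count filter. The other 32 ligands, receptors and regulators of the angiopoietin, Notch, PDGF and BMP list did not pass. Of all 33 genes in that list, 5 were higher and 3 lower at an unadjusted edgeR p under 0.05. That is 24.2%, against 13.8% of all tested genes. Id1, a BMP target, had a log2FC of 0.33 ± 0.12 (adjusted p = 0.203) and the Robo ligand gene Slit3 of -0.94 ± 0.30 (adjusted p = 0.153). Slit3 was near the floor, at 0.696 ± 0.238 CPM in wild type and 0.357 ± 0.0798 CPM under the knockout label. Its counts ran from 10 to 31 per library, and the groups overlapped. The BMP receptor Bmpr2 and the Notch ligand Jag1, highest of the list in CPM without regard to length, had log2FC of -0.11 and 0.04.

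No gene of the norrin-Wnt and barrier list passed (0 of 30). At an unadjusted edgeR p under 0.05 there were 4, or 13.3% against 13.8% of all tested genes, and DESeq2 called 1, with 3.07% of all genes called. Marveld2, which encodes the tight junction protein tricellulin, came nearest, with 2.36 ± 0.993 CPM as the wild-type mean and 4.58 ± 1.12 CPM under the knockout label and no overlap, at a log2FC of 0.96 ± 0.27 (SE, n = 5; edgeR adjusted p = 0.0868). The authors' deposited table gave Marveld2 an adjusted p of 0.00934, and edgeR without W2 gave 0.0387. Lef1, a transcription factor and target of the Wnt pathway, had a log2FC of 0.53 ± 0.19 (adjusted p = 0.192) and the caveolar protein gene Cavin2 of 0.40 ± 0.17 (adjusted p = 0.297). Of the genes highest in CPM without regard to length, Ctnnb1 and the lactate transporter gene Slc16a1 stood at -0.05 and -0.13. The ligand norrin (Ndp) and its receptor complex Fzd4, Lrp5 and Tspan12, named after their values were seen, had log2FC of -0.09 ± 0.12, -0.08 ± 0.07, 0.01 ± 0.12 and 0.0075 ± 0.10.

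Of 33 other endothelial genes, 30 were tested and none passed edgeR's test. At an unadjusted p under 0.05 there were 5, or 16.7% against 13.8% of all tested genes, and DESeq2 called 1, beside its 3.07% of all genes. Kdr, the main VEGF receptor, had 231 ± 32.2 CPM as the wild-type mean and 180.1 ± 18.02 CPM under the knockout label, with W1 at 182 CPM within the labelled knockout range and a log2FC of -0.36 ± 0.10 (SE, n = 5; edgeR adjusted p = 0.0842). The authors' deposited table gave Kdr an adjusted p of 0.0308, and edgeR without W1 gave 0.0195. Without regard to length, wild-type Pecam1 and Tek stood at 12.1 and 10.3 CPM, far below Kdr, and Podxl at 239 CPM. Whole retina was sequenced, so the cells that carried the reads of Kdr and of other genes in these lists were not resolved. Plvap, which forms the diaphragms of leaky vessels such as those of the choroid, had a log2FC of -0.48 ± 0.16 (adjusted p = 0.18, called without W3), Foxq1, a forkhead factor, of 0.60 ± 0.19 (adjusted p = 0.141), and Bsg, highest of the list in CPM, of 0.11 ± 0.09. Among 16 tested of 17 other pericyte genes none passed edgeR's test or DESeq2's, and 2 had an unadjusted edgeR p under 0.05, or 12.5% against 13.8% of all tested genes. Cox4i2, a respiratory chain subunit of pericytes, had a log2FC of 0.27 ± 0.09, Atp13a5 of 0.58 ± 0.21, Foxc1 of 0.38 ± 0.18, and Vtn and Cald1, highest of the list in CPM, of -0.04 and 0.07. Selp, Sele, Mmrn1 and Tbx18 were too low to test.

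Smooth muscle markers, which share the vessel wall with pericytes, had no shared direction. Of 8 tested, 4 had a positive log2FC, and 1 was called (12.5%, against 2.03% of all tested genes, 0.859% called higher). It was Lmod1, an actin regulator of smooth muscle, with a log2FC of 1.55 ± 0.22 (SE, n = 5, edgeR adjusted p = 0.000905). Fibroblast and meningeal markers had 5 of 6 positive (median 0.44) and microglia and macrophage markers 5 of 7 (median 0.16). The 10 smooth muscle markers summed to 188 to 259 CPM in wild type and 196 to 225 CPM in libraries labelled knockout. No gene of the other marker lists, for erythroid, fibroblast, pigment epithelium, microglial, glial and photoreceptor cells, passed.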

How the data were processed

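Retinal RNA of 5 wild-type and 5 Il6-knockout-labelled libraries was sequenced. The authors deposited whole-number read counts per gene, not normalized. The build GRCm38.p5 and the tools STAR 2.5.3a, featureCounts 1.15.2, DESeq2 1.14, FastQC and bcl2fastq are named, with no role or order, per the submitters' processing notes. Strand and multi-mapping settings are not given in the sources used here. Overlapping, antisense and near-identical genes are thus uncertain. Log2 fold changes, p-values, a mean signal and a mark of significance were also deposited by the authors. Only the adjusted p-values were quoted, and the signs of the log2 fold changes were equal in all 32 genes.

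Genes were filtered with edgeR's filterByExpr (minimum count 10, total 15), scaled by TMM and tested with edgeR 4.0.16's quasi-likelihood test on genotype alone, with Benjamini-Hochberg adjustment over 18965 genes and a threshold of 0.05. SE is the absolute log2FC over the root of F. Library totals were 30433373 to 38857374 counts, and counts per library are given for the lowest genes. Exon lengths came from GENCODE M21, in which 30 of the 32 genes had the deposited coordinates. Alternatives were other factors (RLE, upper quartile), DESeq2 1.42.0, limma-voom (3.58.1), no low-count filter, at least 1 CPM in 5 libraries, and leaving out each library. The scripts were tested on simulated data. There, edgeR called 78% of the changes of 1 log2 unit and 44% of those of 0.5, with 12 false calls among 18965 genes. A gene that did not pass may thus still differ.

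The genes and lists were chosen with earlier results of these data known. Library values are given for genes of the set with an unadjusted p under 0.05, and for the highest per kb and smallest p of each role. Of the other vascular lists, called genes, the 3 smallest p and the 2 highest mean CPM, not per kb, are named.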

Additional observations from a re-analysis of the deposited data

Results flagged for a closer look

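In 9 of 64 sets of 5 libraries (32 genes in 2 groups), 1 library stood apart. There, the highest or lowest lay away from the other 4 by more than 0.71 of the group's range. For independent sets, chance gives about 1 in 20. The 64 sets come from the same 10 libraries and are not independent, and the share over all tested genes was not computed. W2 was that library in 4 of the 9. It stood at 27.04 CPM in Slco1a4 against 16.2 to 18.5 CPM in the other wild-type libraries, at 18.1 CPM in Abcg2 against 14.1 to 14.3 CPM, at 9.89 CPM in Ramp2 against 5.35 to 5.76 CPM, and at 14.6 CPM in Tek against 8.63 to 9.95 CPM. W5 stood highest in Tjp1 at 152 CPM against 135 to 139 CPM. Among libraries labelled knockout, K1 stood highest in Anpep at 6.43 CPM against 0.660 to 1.22 CPM, and K3 highest in Vwf at 19.2 CPM against 11.6 to 13.5 CPM. K5 stood lowest in Rgs5 at 101 CPM against 119 to 120.5 CPM, and K4 lowest in Ramp2 at 5.49 CPM against 6.75 to 7.15 CPM.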

How the results depend on the processing

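No paired analysis was possible because the labels carry no replicate number that both groups share. Over all genes, 385 were called, 763 with DESeq2, 704 without a low-count filter, and 211 to 542 when a library was left out. Of the 32 vascular genes, 1 was called, 2 without a low-count filter (Robo4 and Anpep), and 0 to 3 when a library was left out. In the other vascular lists, 1 gene was called, 3 with DESeq2 (Dll1, Kdr and Marveld2), 2 without a low-count filter (Kdr and Marveld2, not Dll1), and 0 to 5 when a library was left out, the 5 without W2 (Dll1, Marveld2, Id3, Slc22a8 and Slc2a1). Fewer libraries or more genes enter these fits, and no further cause was tested. Over 16 alternatives, 481 of 510 values of the 32 genes kept their direction and side of the threshold, 8 lost the call (all Robo4), 3 gained one and 18 turned in sign. Signs turned when a library was left out in Cdh5 (log2FC -0.0263 to 0.195), Icam2 (-0.148 to 0.057), Mfsd2a (-0.136 to 0.154, and 0.0082 with limma-voom), Notch3 (-0.0195 to 0.112), Pdgfrb (-0.0262 to 0.103), Tek (-0.0328 to 0.189), Ly6c1 (-0.051 to 0.146), Jag1 (-0.0789 to 0.0901), Vtn (-0.141 to 0.0106), Lrp5 (-0.0599 to 0.122) and Tspan12 (-0.0524 to 0.0448). None of these was called under any of the 16. Anpep had no p-value with DESeq2 and was not among the genes tested at 1 CPM in 5 libraries.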

Other observations

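Slco1a4, Kcnj8 and Abcc9, which leaned higher, lie within 1 stretch of chromosome 6, and the stretch was looked at after these values were seen. With 250 kb on either side it held 13 tested genes. Slco1c1, a thyroid hormone and organic anion transporter of barrier endothelium and of the same family as Slco1a4, fell, standing at 22, 32.1, 24.03, 21.4 and 20.3 CPM from W1 through W5, then 17.7, 14.6, 17.6, 15.9 and 13.9 CPM from K1 through K5. No library overlapped, and the log2FC was -0.58 ± 0.12 (SE, n = 5; edgeR adjusted p = 0.0195), from -0.64 to -0.46 over the alternatives, of which 13 of 16 called it, the call being lost without K2, K4 or K5. Slco1a5, a neighbour at under 1 CPM, had 0.598 ± 0.0475 CPM as the wild-type mean and 0.270 ± 0.131 CPM under the knockout label, again with no overlap, and did not pass (log2FC -1.13 ± 0.33, edgeR adjusted p = 0.103). Members of this family are alike in sequence, so the assignment of reads among them is uncertain. Pyroxd1, of the same stretch, also lay lower with no overlap (log2FC -0.22 ± 0.10, edgeR adjusted p = 0.357). Of all tested genes, 1.72% lay lower with no overlap. At an unadjusted edgeR p under 0.05, 4 of the 13 genes were lower, against 7.03% of all tested genes. The 2 that were higher were Slco1a4 and Kcnj8. The stretch was drawn around them because they leaned higher, so their count cannot be compared with all tested genes. Of the 13 genes, 4 had a positive log2FC and 9 a negative one (median -0.07). Slco1a4, Kcnj8, Abcc9 and St8sia1 were positive. All but St8sia1 had served to draw the stretch, so that choice largely fixed the count of 4. The genes between Slco1a4 and Kcnj8, Slco1a5 to Ldhb, were all negative.

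Around Robo4 the same distance on chromosome 9 held 18 tested genes. Robo4 was the 1 called, 9 had a positive and 9 a negative log2FC, and the median was -0.02. Robo3, the next gene, had a log2FC of 0.09 ± 0.29 and Esam, 113 kb away, of 0.17 ± 0.10 (SE, n = 5).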
